A study of Mus musculus with 5 samples.

Results

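The Dlk1-Dio3 cluster is an imprinted stretch of mouse chromosome 12 whose maternal copy gives rise to a long row of microRNAs (miRNAs). A list of 47 of its miRNA hairpins was used here, and every array spot named for either arm of a listed hairpin was taken, whatever its signal; the files write the names with the prefix mmu for mouse (mmu-miR-127, mmu-miR-370, mmu-miR-494), which is left out here. This gave 94 spots of the 1265 mouse miRNA spots on each array, 47 for the 5p arms and 47 for the 3p arms. The arrays were single-colour miRNA arrays hybridised with Hy5-labelled total RNA, with 1 array for each of 5 cultures and no replicates. V6.5 ES is an embryonic stem (ES) cell line labelled wild type, and PKM1 KI ES is an ES line with, by its label, PKM1 (the M1 isoform of pyruvate kinase) knocked in. 2TS22c ES and ZHBTc4 ES are ES lines built so that a drug can switch off Sox2 and Oct3/4, respectively; their labels name no drug. These 4 lines grew with leukaemia inhibitory factor (LIF), and the embryoid body (EB) was V6.5 kept as a floating culture for 1 week in the absence of LIF. The labels do not say whether feeder cells were present, nor give the passage of any line or the parent line of PKM1 KI ES.

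In this cluster the maternal chromosome transcribes the long noncoding RNAs Meg3, Rian and Mirg together with the miRNAs, and the paternal chromosome expresses the protein-coding genes Dlk1, Rtl1 and Dio3. Several of the miRNAs, among them miR-127, miR-136, miR-431, miR-433 and miR-434, are transcribed antisense to Rtl1, a retrotransposon-derived gene of the placenta and muscle, and can cleave its message. The row of miRNAs from miR-379 to miR-410 is best known from brain, where neuronal activity raises it. In mouse pluripotent cells the maternal transcripts can be silenced in one line and active in another, and such silencing is known above all from induced pluripotent cells.

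Of the 94 spots, 90 were matched by name to a mature sequence in the RefSeq table (build GRCm38.p6). All 47 hairpins lay on the plus strand of chromosome 12 (chr12:109563710-109743784, a span of 180.1 kb). The annotation placed 1 hairpin inside Meg3, 10 inside Rtl1, 2 inside Rian and 7 inside Mirg, and 27 inside none of these genes. The largest gap, of 90.7 kb, lay between miR-370 and miR-379, and it separates the row from miR-379 to miR-410 from the 13 hairpins before it. Mature sequences are shown in their order along the chromosome for bright miRNAs (miR-770, miR-370, miR-494 and miR-667) and for near-identical partners. miR-487b-3p was bright too but had no sequence in the RefSeq table. Also shown are miR-431-5p, miR-127-3p, miR-411-3p, miR-495-3p, miR-381-3p, miR-541-5p and miR-410-3p. These were above the control limits defined below on 3 arrays and under them on the others, a pattern chosen after the values were seen. Capitals mark the seed, bases 2 to 8, which pairs with target messages.
miR-770-5p (chr12:109563710-109563731): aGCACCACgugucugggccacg
miR-770-3p (chr12:109563744-109563765): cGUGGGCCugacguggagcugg
miR-431-5p (chr12:109590459-109590479): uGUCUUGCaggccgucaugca
miR-127-3p (chr12:109592888-109592909): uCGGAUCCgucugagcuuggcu
miR-370-3p (chr12:109618305-109618326): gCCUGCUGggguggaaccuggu
miR-379-3p (chr12:109709102-109709123): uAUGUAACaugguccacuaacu
miR-411-3p (chr12:109710225-109710246): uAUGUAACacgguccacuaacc
miR-494-3p (chr12:109715367-109715388): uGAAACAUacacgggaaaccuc
miR-495-3p (chr12:109718795-109718816): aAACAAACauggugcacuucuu
miR-667-5p (chr12:109720020-109720044): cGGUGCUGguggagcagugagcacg
miR-376b-3p (chr12:109723508-109723528): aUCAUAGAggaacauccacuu
miR-376a-3p (chr12:109723824-109723844): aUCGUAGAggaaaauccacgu
miR-300-3p (chr12:109724363-109724384): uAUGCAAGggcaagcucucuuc
miR-381-3p (chr12:109726870-109726891): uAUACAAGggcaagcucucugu
miR-541-5p (chr12:109742422-109742446): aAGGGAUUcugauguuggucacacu
miR-410-3p (chr12:109743764-109743784): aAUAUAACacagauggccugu

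The mature forms were 19 to 26 bases long and held 84 distinct seeds. Only 6 seeds were shared, each by a pair of cluster members; miR-379-3p and miR-411-3p share AUGUAAC and match at 20 of 22 bases. miR-300-3p and miR-381-3p match at 19 of 22 bases and miR-376a-3p and miR-376b-3p at 18 of 21, with seeds that differ. The closest pair was miR-376b-5p and miR-376c-5p, alike at 21 of 22 bases and both under the negative control limit on every array, and miR-495-3p with miR-543-3p and miR-1197-5p with miR-496a-5p differ at 4 bases. Probes for such partners may take up each other's target, so the spots of these pairs are uncertain as separate measurements.

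Each spot's intensity is the median brightness of its pixels, and it was read against the control spots of its own array. The blank limit is the mean plus 2 SD of 1664 blank spots, which came to 59.9 (V6.5 ES), 59.5 (PKM1 KI ES), 40.3 (EB), 59.9 (2TS22c ES) and 61.6 (ZHBTc4 ES). The negative control limit is the mean plus 2 SD of 24 spots with control probes, and it was stricter, at 72.2, 73.7, 50.3, 64.6 and 68.5 in the same order. Negative control spots were themselves often brighter than blank ones: 11, 16 and 12 of the 24 exceeded the blank limit on V6.5 ES, PKM1 KI ES and the EB, against 3 on 2TS22c ES and 2 on ZHBTc4 ES. The EB array was scanned at a detector gain of 43 and the others at 46 or 47, so raw intensities are not compared between arrays, and ZHBTc4 ES lay alone on a second chip. The miR-290 to miR-295 cluster, whose miRNAs are abundant in mouse ES cells, was read as an ES marker. At least 11 of its 12 spots exceeded the negative control limit on every array, the EB included, so passing it does not set ES cells apart from the EB.

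Most cluster miRNAs were dim. The median intensity of the 94 spots on the arrays, taken in this same order, was 62.5, 66.5, 44.0, 55.0 and 55.0. Set against the blank spots, these medians lay 2.46, 3.24 and 3.04 blank SDs above the blank mean on the first 3 arrays and 1.17 and 0.892 on the last 2. The medians of all 1265 miRNA spots lay at 2.55, 2.80, 3.04, 1.51 and 1.57 blank SDs, so the cluster sat near the array's typical spot on the first 3 arrays and lower than it on 2TS22c ES and ZHBTc4 ES. The 94 spots carried 1.27% of the summed miRNA intensity above the blank mean on V6.5 ES, 1.27% on PKM1 KI ES and 1.21% on the EB, against 0.773% on 2TS22c ES and 0.709% on ZHBTc4 ES. A single spot, miR-494-3p, gave between 32.4% and 40.8% of the cluster's part on each array.

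**Figure D1:**
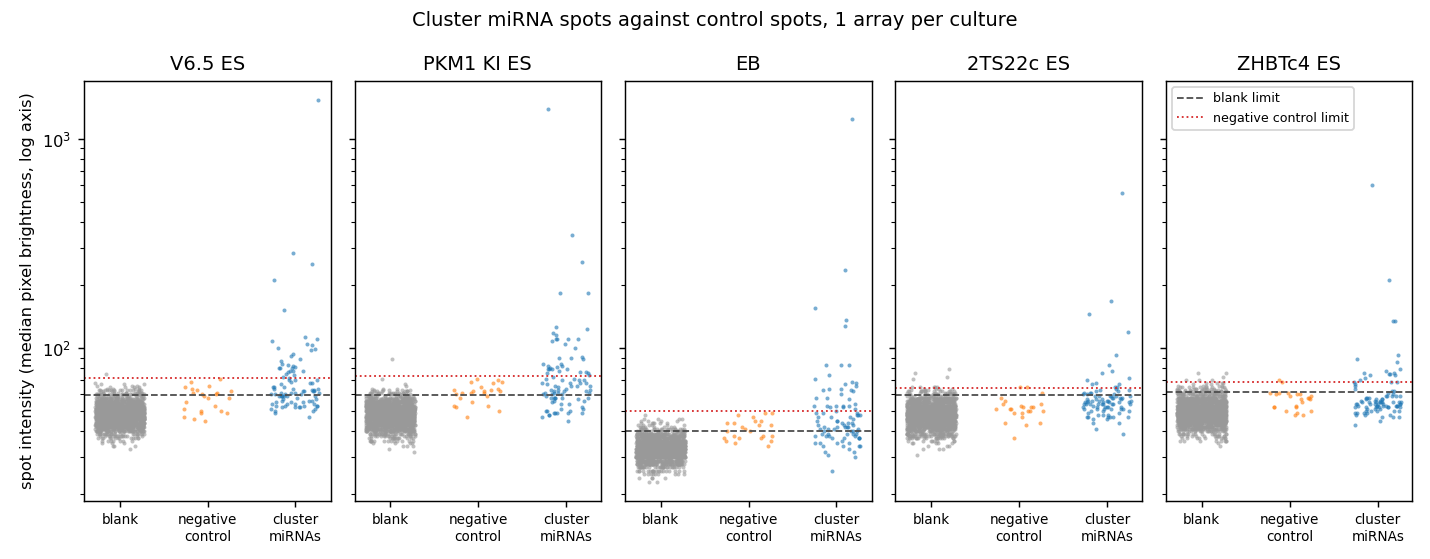
Intensity of every blank spot (grey), negative control spot (orange) and cluster miRNA spot (blue) on each of the 5 arrays, on a log axis, with points spread sideways for visibility; the dashed and dotted lines are the blank limit and the negative control limit of that array. Most cluster spots lie no higher than the brightest negative control spot, the single point far above is miR-494-3p, and more cluster spots lie above the dotted line on V6.5 ES, PKM1 KI ES and the EB than on 2TS22c ES and ZHBTc4 ES.

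More cluster spots passed the limits on V6.5 ES, PKM1 KI ES and the EB than on the other arrays. Above the blank limit were 59 of 94 on V6.5 ES (62.8%, beside 59.6% of all miRNA spots), 66 on PKM1 KI ES (70.2%, beside 60.3%) and 61 on the EB (64.9%, beside 59.3%). On 2TS22c ES 26 passed (27.7%, beside 40.1%) and on ZHBTc4 ES 25 (26.6%, beside 41.1%). All miRNA spots thus passed less often on the last 2 arrays, and the cluster's share, which was above that background on the first 3 arrays, was below it there. Against the negative control limit the counts were 31 on V6.5 ES (33.0%, beside 37.3%), 36 on PKM1 KI ES (38.3%, beside 36.9%) and 32 on the EB (34.0%, beside 39.2%). With this limit 15 passed on 2TS22c ES (15.96%, beside 30.6%) and 20 on ZHBTc4 ES (21.3%, beside 29.0%). By the stricter limit the cluster was thus near or below the background on each array. With 1 array per culture, these counts describe arrays, and how much they would vary between repeats is unknown.

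**Figure D2:**
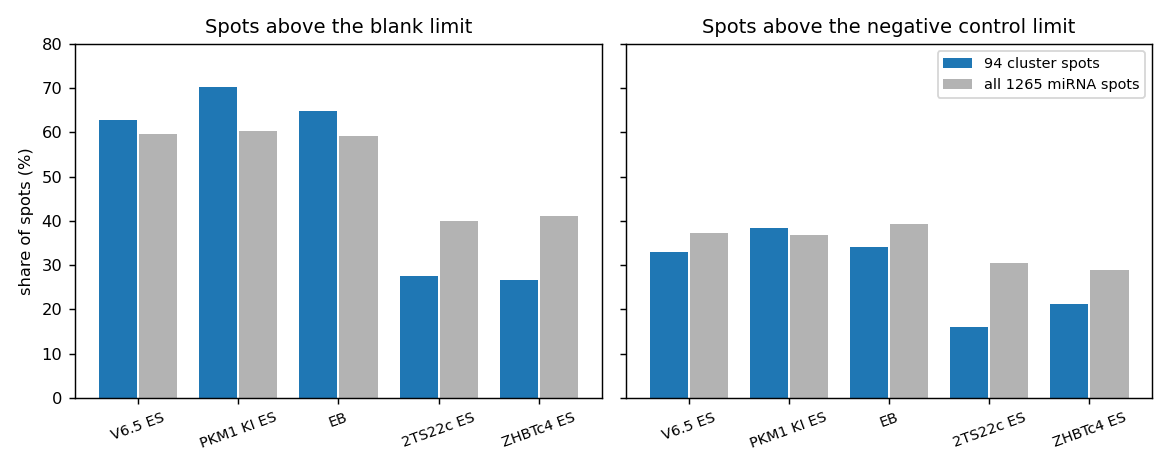
Share of spots above the blank limit (left) and above the negative control limit (right) on each array, for the 94 cluster spots (blue bars) and all 1265 miRNA spots (grey bars); there are no error bars because each culture has 1 array. The blue bars stand at 62.8% to 70.2% on the first 3 arrays and at 27.7% and 26.6% on the last 2 in the left panel.

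The 3p arms of the cluster passed more often than the 5p arms, by more than over the whole array. Of 47 spots per arm, 20, 25, 20, 9 and 12 of the 3p arms exceeded the negative control limit on V6.5 ES, PKM1 KI ES, the EB, 2TS22c ES and ZHBTc4 ES, and 11, 11, 12, 6 and 8 of the 5p arms. On V6.5 ES this was 42.6% of the 3p and 23.4% of the 5p arms, beside 36.9% and 36.3% of all spots named for a 3p or a 5p arm. On PKM1 KI ES it was 53.2% and 23.4%, beside 37.6% and 34.0%, and on the EB 42.6% and 25.5%, beside 39.2% and 39.6%. On 2TS22c ES it was 19.1% and 12.8%, beside 27.3% and 31.5%, and on ZHBTc4 ES 25.5% and 17.0%, beside 27.6% and 28.8%. Both arms of a hairpin passed for 3 to 7 of the 47 hairpins per array, and the matching share over the whole array is not given here. Along the chromosome, the 10 hairpins from miR-337 to miR-370, most of them inside Rtl1 in the annotation, had 10, 10, 9, 4 and 7 of 20 spots above that limit. The row from miR-379 to miR-410 had 19, 23, 20, 9 and 11 of 68 (27.9%, 33.8%, 29.4%, 13.2% and 16.2%), below that background on every array. The first 3 hairpins (miR-770, miR-673 and miR-493) had 2, 3, 3, 2 and 2 of 6, and both arms of miR-770, which lies inside Meg3, were among those that passed on every array.

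**Figure D3:**
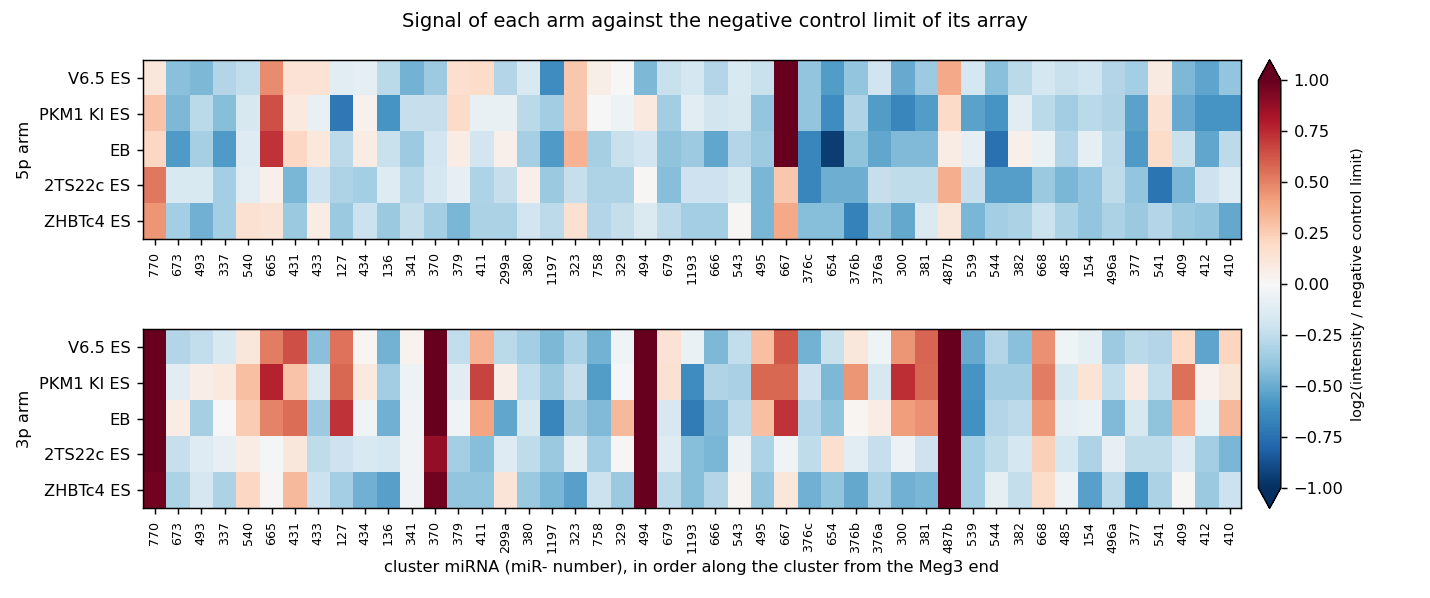
Log2 of each spot's intensity over the negative control limit of its array, for the 5p arms (top) and 3p arms (bottom) of the 47 hairpins in their order along the cluster, with 1 row per array; red is above the limit, blue below, and colours are capped at 1 and -1. miR-770-3p, miR-370-3p, miR-494-3p and miR-487b-3p are red on all 5 arrays, while spots such as miR-127-3p and miR-381-3p are red on the upper 3 rows only.

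Of the 94 spots, 11 exceeded the negative control limit on all 5 arrays, which is 11.7% beside 22.8% of all miRNA spots, and 45 exceeded it on none (47.9%, beside 51.7%). By the blank limit 15 passed on all 5 arrays (15.96%, beside 31.0%) and 13 on none (13.8%, beside 24.2%). The share of cluster spots that passed everywhere was therefore smaller than on the whole array, and by the blank limit so was the share that passed nowhere.

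miR-494-3p, of the distal row, had intensities of 1528 (V6.5 ES), 1393 (PKM1 KI ES), 1244 (EB), 550 (2TS22c ES) and 601 (ZHBTc4 ES). Its normalised log2 signals were 10.33, 10.06, 10.27, 9.82 and 9.76, so the first 3 arrays lay above the others without overlap. Its 5p partner, the other arm of the hairpin, was dim, at 53, 79, 44, 65 and 62.

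miR-370-3p, which lies inside Rian, had intensities of 285, 348, 236, 119 and 134 in the same order of arrays and normalised log2 signals of 7.89, 8.14, 8.01, 7.47 and 7.53. It followed the order of miR-494-3p, with V6.5 ES, PKM1 KI ES and the EB above 2TS22c ES and ZHBTc4 ES. miR-667-5p, at 152, 184, 128, 78 and 89, did so too (7.10, 7.41, 7.23, 6.82 and 6.88 on the log2 scale).

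miR-770-3p had intensities of 251, 258, 155, 145 and 134, and its log2 signals of 7.67, 7.77, 7.55, 7.82 and 7.53 did not separate the arrays. Its partner miR-770-5p, at 78, 90, 58, 93 and 93, had log2 signals of 6.41, 6.55 and 6.44 on V6.5 ES, PKM1 KI ES and the EB and 7.16 and 6.97 on 2TS22c ES and ZHBTc4 ES. On the normalised scale the 2 arms of this hairpin thus differed in order, and the 5p arm was higher on 2TS22c ES and ZHBTc4 ES than on the other arrays.

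miR-487b-3p had intensities of 211, 183, 136, 168 and 212 and log2 signals of 7.41, 7.39, 7.32, 8.14 and 8.33. It was the cluster miRNA with the widest range of normalised signal over the 5 arrays, 1.01 on the log2 scale, and its high arrays were 2TS22c ES and ZHBTc4 ES; with spike scaling it was lower on 2TS22c ES than on V6.5 ES, by a log2 difference of -0.18. The median range of the 94 spots was 0.29. The other 6 spots above the negative control limit everywhere were miR-431-3p, miR-668-3p, miR-665-5p, miR-487b-5p and miR-540-3p, with intensities from 53 to 115, and miR-770-5p.

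The guide arms best known from the literature of the cluster, 26 in all, spread over the whole range of signal. Apart from miR-370-3p, miR-487b-3p and miR-494-3p, none passed the negative control limit on every array, and miR-409-3p passed on 4 (83, 108, 64, 59 and 69, dim on 2TS22c ES). A group of 8 passed on the 3 arrays V6.5 ES, PKM1 KI ES and EB and on neither of the others. They were miR-127-3p and miR-431-5p, which are antisense to Rtl1, and miR-376b-3p, miR-379-5p, miR-381-3p, miR-410-3p, miR-495-3p and miR-541-5p of the distal row. miR-434-3p, another Rtl1 antisense miRNA, passed on V6.5 ES and PKM1 KI ES and was just under the limit on the EB (73, 79, 49, 58 and 49). On 1 array each passed miR-299a-5p, miR-341-3p, miR-376a-3p, miR-377-3p, miR-382-5p, miR-411-5p and miR-543-3p. The 6 that passed on none were miR-136-5p and miR-433-3p, also antisense to Rtl1, miR-154-5p, miR-323-3p, miR-376c-3p and miR-485-5p. At intensities of 39 to 67 they stayed under the highest negative control spot of each array.

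A pattern chosen after the values were seen was passing on V6.5 ES, PKM1 KI ES and the EB but on neither 2TS22c ES nor ZHBTc4 ES. By the blank limit it held for 19 cluster spots (20.2%, beside 8.93% of all miRNA spots), and the reverse for 0 (beside 0.316%). By the negative control limit it held for 10 (10.6%, beside 5.06%), and the reverse for 0 (beside 0.237%). When a spot had to exceed the negative control limit on the first 3 arrays and stay under even the blank limit on the last 2, 7 cluster spots remained (7.45%, beside 1.98%), and the reverse held for 0 (beside 0.0791%). These 7 were miR-431-5p, miR-127-3p, miR-411-3p, miR-495-3p, miR-381-3p, miR-541-5p and miR-410-3p, and their sequences above share no seed.

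miR-127-3p had intensities of 105, 110 and 83 on the first 3 arrays and of 56 (2TS22c ES) and 54 (ZHBTc4 ES) on the others. miR-381-3p, in the same order, stood at 108, 110, 69, 56 and 50, and its near-identical partner miR-300-3p at 98, 123, 67, 62 and 49. On the first 3 arrays these spots were brighter than every negative control spot, and on ZHBTc4 ES they lay under the blank limit.

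miR-411-3p had intensities of 92, 118, 66, 48 and 52, whereas miR-379-3p, with the same seed, had 61, 68, 49, 51 and 52. Both exceeded the blank limit on the first 3 arrays and lay under it on 2TS22c ES and ZHBTc4 ES, but miR-379-3p did not reach the negative control limit anywhere. miR-495-3p stood at 89, 110, 62, 52 and 52.

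The other 3 were closer to the limit. Intensities were 80, 79, 58, 47 and 53 for miR-431-5p, and 84, 80, 63, 47 and 59 for miR-410-3p, the last hairpin of the row. miR-541-5p had 77, 82, 57, 39 and 56. On the first 3 arrays they exceeded the negative control limit by a factor between 1.07 and 1.25, and no array has a repeat to show whether such a margin is stable.

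**Figure D4:**
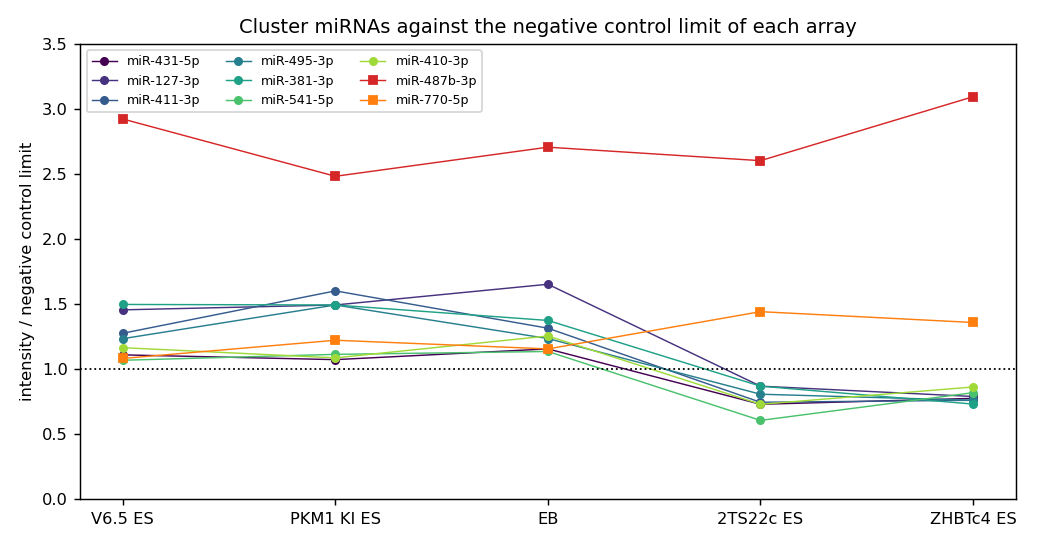
Intensity divided by the negative control limit of the same array (dotted line at 1) for 9 cluster miRNAs on the 5 arrays; each point is 1 spot on 1 array, and lines only join the points of a miRNA. The 7 miRNAs with round points, chosen for this pattern after the values were seen, lie above the line on V6.5 ES, PKM1 KI ES and the EB. They lie below it on 2TS22c ES and ZHBTc4 ES, whereas miR-487b-3p and miR-770-5p (squares) lie above it on all 5 arrays.

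On the normalised scale, which sets every array to the same distribution of signal, 28 of all 94 cluster spots, detected or not, were higher on V6.5 ES, PKM1 KI ES and the EB than on both other arrays (29.8%, beside 20.6% of all miRNA spots). The opposite order held for 14 (14.9%, beside 19.6%), among them miR-487b-3p, miR-770-5p, miR-487b-5p and miR-543-3p. The opposite order was thus less frequent in the cluster than over the whole array. Its 14 spots include some, such as miR-654-5p and miR-673-5p, that passed the blank limit on no array.

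Some markers of fibroblasts and mesenchyme moved with this division of the arrays, and others did not on the normalised scale. Of 19 spots for miRNAs of fibroblasts, mesenchyme or feeder cells, 10, 9, 10, 6 and 5 exceeded the negative control limit on V6.5 ES, PKM1 KI ES, the EB, 2TS22c ES and ZHBTc4 ES, and their summed intensity above the blank mean was 0.407%, 0.286%, 0.315%, 0.193% and 0.163% of that of all miRNA spots of the array. The shared spot of miR-199a-3p and miR-199b-3p, miRNAs typical of mesenchyme, stood at 177, 96, 137, 43 and 60, which is under the blank limit on the last 2 arrays. miR-21a-5p, above the negative control limit everywhere, had normalised log2 signals of 8.06, 8.01, 7.93, 7.45 and 7.40. On this normalised scale miR-22-3p had the opposite order (6.61, 6.68, 6.65, 6.90 and 6.90). There, miR-214-3p (7.30, 7.01, 7.40, 7.20 and 7.10) and miR-221-3p (7.60, 7.41, 6.90, 7.65 and 7.62) did not follow the division as the cluster spots did. Intensities were 96, 104, 74, 80 and 90 for miR-22-3p, 185, 137, 140, 97 and 102 for miR-214-3p, and 241, 184, 96, 132 and 144 for miR-221-3p. The order of these 3 under other scalings is not given here and may differ. The ES markers of the miR-290 to miR-295 cluster had median log2 signals of 7.68, 7.79, 7.56, 8.89 and 8.85, higher on the last 2 arrays; their relation to the cluster's signal was not tested. miR-22-5p, miR-21a-3p and miR-221-5p exceeded the blank limit on no array. The part of these cells in the cluster's signal was not tested, and in bulk RNA fewer cells that express a miRNA and less of it per cell cannot be told apart. Of 10 neural spots, 1, 0, 4, 1 and 1 exceeded the negative control limit, and of 13 muscle spots 2, 2, 2, 1 and 0. Of all miRNA spots 37.3%, 36.9%, 39.2%, 30.6% and 29.0% exceeded it, so the neural share on the EB, 40.0%, was near that of the array. The shares of the fibroblast spots were 52.6%, 47.4%, 52.6%, 31.6% and 26.3%.

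The EB and V6.5 ES arrays differed little in the cluster. At least 1 of the 2 arrays detected 71 cluster spots by the blank limit, of which 49 were detected on both, 12 on the EB only and 10 on V6.5 ES only, beside 96 and 100 one-sided detections among all 850 miRNAs detected there. None differed by 2-fold or more, beside 0.353% of those miRNAs. The offset used in the normalisation pulls differences of dim spots towards 0, so dim cluster spots could hardly reach 2-fold in any comparison. The median difference was 0.00 on the log2 scale (0.01 for all miRNAs), and the spots detected on both arrays ran from -0.24 for miR-411-5p to 0.20 for miR-329-3p.

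PKM1 KI ES against V6.5 ES gave a like picture. Of 76 spots detected on either array, 49 were detected on both, 17 on PKM1 KI ES only and 10 on V6.5 ES only, beside 120 and 111 one-sided detections among all 874. None differed by 2-fold or more, beside 0.343% of all miRNAs, with the same limit for dim spots. The median difference was 0.05 (0.02 for all), with 49 spots higher on PKM1 KI ES (64.5%, beside 51.6% of all) and 27 lower. The spots detected on both arrays ran from -0.26 for miR-494-3p to 0.31 for miR-667-5p.

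Fewer cluster spots were detected on 2TS22c ES than on V6.5 ES. Of 62 spots detected on either array, 36 passed on V6.5 ES alone and 3 on 2TS22c ES alone, beside 297 and 50 of the 804 miRNAs detected on either array. None of the 62 reached 2-fold, beside 4.98% of all. The offset and the bounds hold back differences of dim spots, so this 0 does not show that the cluster was unchanged. The median difference was -0.15 (-0.06 for all), with 20 spots higher on 2TS22c ES (32.3%, beside 41.5% of all) and 42 lower, and it was 0.00 with one-sided detections set to their bounds and 0.02 with arrays scaled to their medians. Over the 23 spots detected on both arrays the median had the opposite sign, 0.10 (0.07 for all). On this scale the negative value thus rests on the spots that passed on V6.5 ES alone. Such spots tend to be lower on 2TS22c ES by the way they were picked, so the sign change does not decide whether the cluster was lower. Over spots detected on either array, spike scaling gave a median of -0.23 (-0.21 for all) and the authors' deposited table -0.78 (-0.63 for all). Those 23 ran from -0.51 for miR-494-3p to 0.75 for miR-770-5p.

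ZHBTc4 ES against V6.5 ES, a comparison that shares the V6.5 ES array, gave 62 spots, 37 of them passing on V6.5 ES alone and 3 on ZHBTc4 ES alone, beside 285 and 51 of the 805 miRNAs detected on either array. None reached 2-fold, beside 4.22% of all, and the same limit for dim spots holds here. The median difference was -0.14 (-0.05 for all), or 0.00 with bounds and -0.01 with arrays scaled to their medians. Over the 22 spots detected on both arrays it was 0.06 (0.04 for all), again of the opposite sign and with the same limit from how spots were picked. Over spots detected on either array, spike scaling gave a median of -0.24 (-0.19 for all) and the authors' deposited table -0.76 (-0.55 for all). Those 22 ran from -0.56 for miR-494-3p to 0.92 for miR-487b-3p.

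Among spots detected on both arrays of a pair, bright cluster miRNAs lay on either side. miR-494-3p was 1.42-fold lower on 2TS22c ES and 1.47-fold lower on ZHBTc4 ES than on V6.5 ES, and miR-370-3p differed by -0.42 and -0.36 on the log2 scale. Scaled to the spike controls, the log2 differences of miR-494-3p were -1.29 and -1.26, and in the authors' deposited table -1.29 and -1.23. miR-770-5p differed by 0.75 and 0.56, or by 0.29 and 0.22 with spike scaling, and was higher on both lines under all 6 alternatives (local background, none, offset 16, median scaling, spike scaling and the authors' deposited table). miR-487b-3p was 1.65-fold and 1.89-fold higher, but its difference on 2TS22c ES was -0.18 with arrays scaled to the spike controls and -0.03 in the authors' deposited table, so its direction there depends on the scaling. On ZHBTc4 ES those values were 0.05 and 0.24. Spots seen on V6.5 ES only have a bound. miR-381-3p was at least 1.35-fold lower on 2TS22c ES and at least 1.36-fold lower on ZHBTc4 ES, and miR-127-3p at least 1.32-fold and at least 1.33-fold lower. For miR-411-3p, miR-495-3p, miR-410-3p, miR-431-5p and miR-541-5p the bounds lay between 1.06-fold and 1.20-fold. With local background taken off, the sign turned for miR-495-3p on 2TS22c ES (0.23) and for miR-411-3p (0.04) and miR-541-5p (0.22) on ZHBTc4 ES.

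2TS22c ES and ZHBTc4 ES, the lines with switchable Sox2 and Oct3/4, differed from each other by no more than 2-fold in any of the 34 cluster spots detected on either (0, beside 0.163% of all). Of these, 17 were detected on both arrays, and the median difference of ZHBTc4 ES from 2TS22c ES was 0.06 (0.00 for all). The 17 ran from -0.36 for miR-487b-5p to 0.34 for miR-540-5p.

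**Figure D5:**
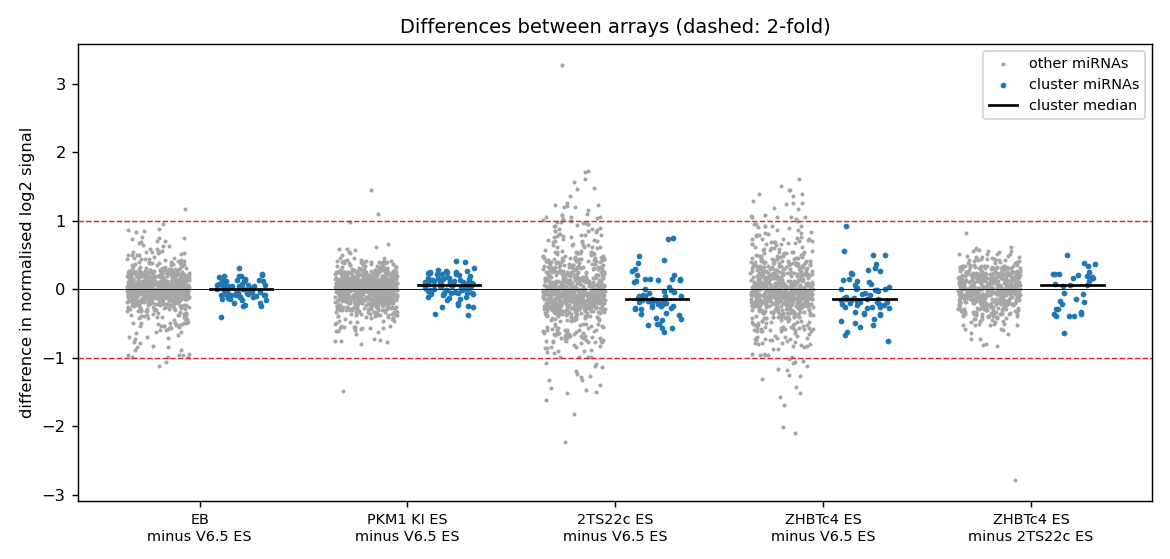
Difference in normalised log2 signal for each miRNA detected on at least 1 of the 2 arrays compared, for cluster miRNAs (blue) and all other miRNAs (grey), with the cluster median as a black bar and dashed lines at 2-fold. The 4 comparisons with V6.5 ES share that array. No blue point reaches a dashed line, and the cluster median is at -0.15 and -0.14 for 2TS22c ES and ZHBTc4 ES. The offset used in the normalisation pulls differences of dim spots towards 0.

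One test was made, which sets the EB against the 4 ES arrays, whose spread includes the differences between lines, with the single EB array taken to vary as they do. No cluster miRNA passed limma's test at an adjusted p of 0.05 (0 of 81 tested, beside 0.0% of all 959), and 0 of the 81 had an unadjusted p under 0.05, beside 2.4% of all. The lowest adjusted p of a cluster miRNA was 0.990. The EB lay within the range of the 4 ES arrays for 54 of the 81, above all of them for 15 (beside 18.6% of all miRNAs) and below all for 12 (beside 16.7%). The 5 with the lowest p-values were miR-299a-3p, miR-409-5p, miR-673-3p, miR-487b-5p and miR-666-5p. miR-299a-3p differed by -0.36 (SE 0.21) from the ES mean, miR-409-5p by 0.18 (SE 0.11) and miR-673-3p by 0.18 (SE 0.12). These standard errors are large beside differences of this size, and a miss of the threshold does not show that the EB and the ES lines were alike.

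The GC content of the sequences was compared between the classes of spots. The 11 spots above the negative control limit on all arrays had a median GC content of 63.3% (10 with a sequence), those above it on 1 to 4 arrays 48.8% (38 spots) and those above it on none 46.4% (42 with a sequence). The classes overlapped, and the lowest GC content of the first class, 45.5%, was that of miR-494-3p, the brightest spot of the cluster. Across the 90 cluster spots with a sequence, Spearman's rho between GC content and intensity was 0.262, 0.363, 0.284, 0.307 and 0.556 on V6.5 ES, PKM1 KI ES, the EB, 2TS22c ES and ZHBTc4 ES. Across 1020 spots of the whole array it was 0.435, 0.493, 0.475, 0.359 and 0.417. These points share an array and overlap in sequence, so they are a description, and brighter spots cannot be read as more abundant miRNAs.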

How the data were processed

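Total RNA of 5 mouse cultures was hybridised to 1 miRNA array each; the labels give the Hy5 dye and a labelling kit, and per the file headers the design is version 19, read at 635 nm. The deposited scanner files hold the intensity of each spot (median of its pixels, no background taken off). The deposited table of processed intensity values followed the scanner values linearly (Pearson r at least 0.99998 over spots with a value), with each column's median at 25; its background step is not given in the sources used here, and it was an alternative only, with missing values set to the array's lowest.

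From the deposited intensity values, limma 3.58.1 (R 4.3.3) computed normexp-corrected values (saddle, offset 50) over all spots, quantile-normalised over 1265 miRNA spots, as log2 signals; the offset pulls differences of dim spots towards 0. A spot was detected above the blank limit. A spot detected on 1 of the 2 arrays compared got a bound against the higher of its own signal and the lowest detected one there. The EB was tested against the 4 ES arrays with lmFit and eBayes, Benjamini-Hochberg adjusted over 959 miRNAs detected on at least 1 array; the script was tested on simulated data. Named miRNAs were the 10 brightest of those above the negative control limit everywhere, any at 2-fold, the 5 lowest p-values and 26 known guide arms; others were chosen after their values were seen. Cluster members, marker lists and tests were chosen with earlier results of these data known. Sequences and coordinates are RefSeq's (GRCm38.p6); the array files name no build. Alternatives were another background correction, offset, scaling, detection limit and the deposited table, and leaving out each ES array.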

Additional observations from a re-analysis of the deposited data

How the results depend on the processing

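The number of cluster spots detected depended on the limit. With the negative control limit it was 31 on V6.5 ES, 36 on PKM1 KI ES, 32 on the EB and 15 on 2TS22c ES; with a limit of 3 SD, 39 on V6.5 ES and 13 on 2TS22c ES; with local background taken off, 16, 27, 22, 6 and 9 on the 5 arrays. Above the highest negative control spot, a limit added after the data were seen, there were 32, 37, 33, 13 and 16. Under each of these limits the counts on 2TS22c ES and ZHBTc4 ES were below those on the other 3 arrays. All miRNA spots also passed less often there. Above the highest negative control spot were 38.3%, 38.5%, 40.4%, 29.3% and 26.5% of them on the 5 arrays. The cluster's shares were 34.0%, 39.4%, 35.1%, 13.8% and 17.0%. Shares of all miRNA spots for the 3 SD and local background limits are not given here.

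In the authors' deposited table, cluster miRNAs to the number of 2 differed by 2-fold or more between the EB and V6.5 ES (beside 14.1% of all miRNAs), 4 for PKM1 KI ES (9.61%), 27 for 2TS22c ES (25 of them lower, beside 33.7% of all), 25 for ZHBTc4 ES (23 lower, beside 28.8%) and 2 for ZHBTc4 ES against 2TS22c ES (5.87%). The matching medians were 0.18 for PKM1 KI ES, -0.78 for 2TS22c ES (-0.63 for all), -0.76 for ZHBTc4 ES (-0.55 for all) and 0.20 for ZHBTc4 ES against 2TS22c ES. An offset of 16 gave 1 call for 2TS22c ES (miR-770-5p, higher, beside 9.2% of all) and 1 for ZHBTc4 ES (miR-487b-3p, higher, beside 6.46%), with medians of -0.26 and -0.25. Scaling to the spike controls shifted the median of all miRNAs by 0.18 for the EB, -0.15 for 2TS22c ES and -0.14 for ZHBTc4 ES against V6.5 ES; it moved the EB median to 0.15 and gave 2 calls for 2TS22c ES (miR-370-3p and miR-494-3p, lower, beside 11.4%) and 1 for ZHBTc4 ES (miR-494-3p, lower, beside 10.2%). Scaling to the median gave medians of 0.016 for 2TS22c ES and -0.013 for ZHBTc4 ES. The causes were not tested.

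In the limma test of the EB, no cluster miRNA was called under any alternative or without any ES array (range 0 to 0), and the lowest adjusted p ranged from 0.470 with spike scaling to 1.0. No paired analysis was possible because each group has 1 array. Signal near the control spots and the single array per culture limit every value.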

Other observations

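The array also held 17 spots for miRNAs of the same chromosomal region that were not in the list of 47. Of these, 6 exceeded the negative control limit on ZHBTc4 ES (35.3%, beside 29.0% of all miRNA spots). On each other array 7 did (41.2%, beside 30.6% to 39.2%). The brightest of them on V6.5 ES, miR-3072-5p, had intensities of 958, 1143, 983, 320 and 370 on V6.5 ES, PKM1 KI ES, the EB, 2TS22c ES and ZHBTc4 ES. Its normalised log2 signals were 9.58, 9.73, 9.95, 9.06 and 9.17. The other arm, miR-3072-3p, stood at 460, 522, 388, 368 and 420. Its normalised log2 signals of 8.53, 8.59, 8.63, 9.24 and 9.33 had the opposite order, higher on 2TS22c ES and ZHBTc4 ES. That order holds for the normalised scale and is not seen in the intensities. Other scalings are not given here for this spot.

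In the authors' deposited table, which lacks values for some spots, 12, 13, 16, 49 and 57 of the 94 cluster spots had no value on V6.5 ES, PKM1 KI ES, the EB, 2TS22c ES and ZHBTc4 ES. These are 12.8%, 13.8%, 17.0%, 52.1% and 60.6% of the cluster, beside 22.8%, 21.7%, 25.5%, 45.4% and 43.1% of all miRNA spots. Values were thus missing less often in the cluster than over the whole array on the first 3 arrays and more often on the last 2.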
